A study of Homo sapiens with 45 samples.

Results

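A pair of sets of nontargeting siRNA controls of HCT116 were compared with each other. HCT116 is an established human colon cancer cell line. The sets hold 6 of the 45 samples of the series and 6 of its 10 RNA libraries. They are the 2 libraries named Scramble and the 4 libraries named siNTC5, chosen by library name. All 6 received a nontargeting control siRNA at 25 nM through a lipid reagent, RNAiMAX and were collected at 72 hours. The sample titles number the 6 as replicates of 1 control, and the library names alone set the sets apart. Nothing in the labels gives the siRNA sequences or says that libraries came from separate cultures, so p-values here measure only the spread between these libraries, which may be technical.

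Other properties go with the set. RNA of the Scramble libraries was purified with the Qiagen RNeasy mini kit and that of the siNTC5 libraries with the Maxwell RSC simple RNA Tissue kit. Scramble libraries and siNTC5 libraries 1 and 2 were made with the TruSeq stranded mRNA kit, and siNTC5 libraries 3 and 4 with a ligation-based stranded mRNA kit. The Scramble counts came in tables of their own, with 27135 gene names. The siNTC5 counts came in 1 table of 8 libraries with 28278 names, shared with 4 libraries of HNRNPK siRNA, and 25527 names are shared. Scramble libraries held 59209169 and 55007171 counts, and siNTC5 libraries between 14810376 and 23633851. Set, purification kit, count table and depth cannot be told apart, and no cause of a difference given here was tested. Within siNTC5 the library kit goes with the library number. A difference named by kit below can therefore be any difference between libraries 1 and 2 and libraries 3 and 4.

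A nontargeting siRNA is meant to load the RNA interference machinery without silencing a chosen gene, so such controls are the baseline for every knockdown. Control wells can still differ in their stress responses, their growth and the handling of their RNA. The amino acid response, run by the transcription factor ATF4, switches on synthesis and import of amino acids when cells are short of them or when translation initiation is curbed. Genes of DNA replication and mitosis are read out by E2F and FOXM1-type regulators in cycling cells. Immediate early genes answer growth factors and handling within minutes.

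Of 14263 genes with enough counts to test, 9783 (68.6%) passed an adjusted p of 0.05 between the sets. In Scramble 5009 (35.1%) were higher and 4774 (33.5%) lower, with library kit in the model. With library totals in place of the TMM scaling the split was 3610 higher and 6347 lower, and the median gene moved by -0.18 on the log2 scale. Both Scramble libraries lay outside the range of all 4 siNTC5 libraries for 70.3% of the genes, above it for 36.4% and below it for 33.9%. With the TruSeq libraries alone 64.6% passed. The median absolute log2 fold change was 0.47. Between the library kits, within siNTC5, it was 0.17, and 2430 genes (17%) passed. Among the genes that passed, 3500 differed by a log2 fold of 1 or more in either direction (24.5% of those tested). Rank correlation across genes was at least 0.988 between libraries within siNTC5, 0.998 between the Scramble libraries, and at most 0.889 between libraries of different sets. These correlations are across genes, which are not independent replicates.

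A first block of differences concerned genes that were listed near 0 in a whole table. Ubiquitous genes such as HNRNPL (an RNA-binding splicing regulator), FBL (the nucleolar methyltransferase fibrillarin) and RPS18 (a ribosomal protein) had almost no counts in siNTC5. HNRNPL stood at 272 and 304 CPM in Scramble and at 0 in all 4 siNTC5 libraries. CPM is the usual depth-scaled read count, here with TMM factors. RPS18 stood at 1749 and 1809 CPM against 0.054 to 0.545 CPM. By a rule chosen after seeing the data, 298 genes were under 1 CPM in all 8 libraries of the siNTC5 table and at 10 CPM or more in both Scramble libraries, and 5 genes showed the opposite (RPL21, CNTNAP3B, FAM133B, FAM157B and FAM72A). All 298 were tested and called higher, which the rule fixes. Their counts made up 2.79% and 2.83% of the Scramble counts.

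These genes lay next to each other more often than other genes did. Among names with a RefSeq position, 54.9% of them had another such gene as an expressed neighbour, against 3.88% of all expressed genes. Chromosome 6 held the most, 49 of 624 expressed genes, among them TAP1, RPS18, IER3, TRIM27, AGPAT1, NEU1 and EHMT2. Chromosome 17 held 32 and chromosome 14 held 27. The 10 largest rises among genes with counts in both sets were all of this kind: MLLT6, FAM83H, YTHDC1, AGPAT1, TRIM27, B3GALNT2, TMEM14C, FNBP4, SYNRG and MRPS12. The 8 libraries include the HNRNPK knockdown, so these genes were near 0 there with both siRNAs. Whether alignment, annotation or counting set them near 0 was not tested.

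**Figure D1:**
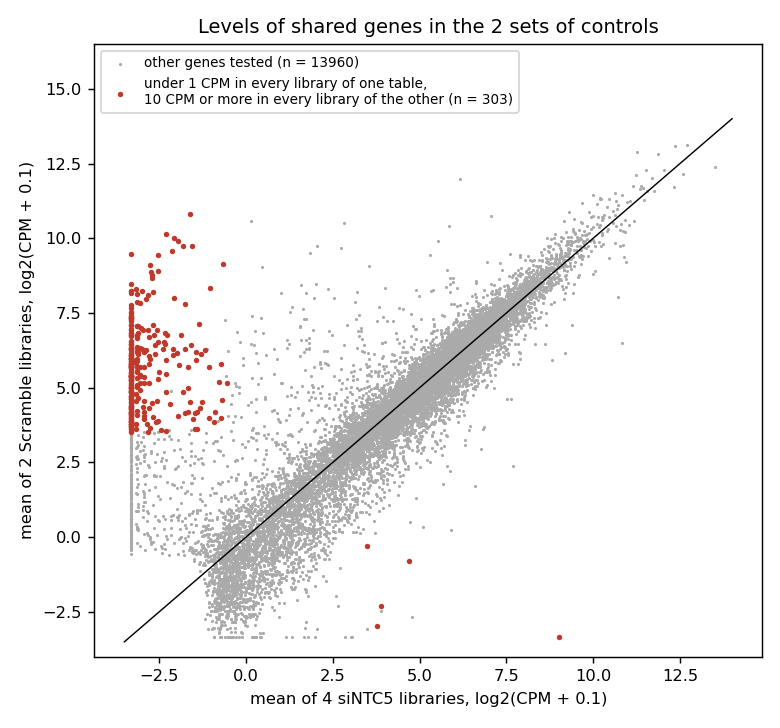
Mean level of each tested gene in the 4 siNTC5 libraries (x axis) and the 2 Scramble libraries (y axis), both as log2 of CPM plus 0.1, with the line of equal levels. Red points are the 303 genes under 1 CPM in every library of one table and at 10 CPM or more in every library of the other. The 298 high in Scramble lie at the upper left and the 5 high in siNTC5 at the lower right, apart from the main cloud.

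A further set of genes was low but not near 0 in the 8-library table. ASNS (asparagine synthetase) stood at 889 and 819 CPM in Scramble and at 2.19, 2.26, 6.25 and 5.29 CPM in siNTC5. ALDOA (the glycolytic aldolase) stood at 3847 and 4181 CPM against 42.1 to 94.0 CPM, and TJP1 (a tight junction scaffold) at 258 and 259 CPM against 3.03 to 4.72 CPM. In the HNRNPK knockdown libraries of the same table, scaled by library totals, ASNS reached at most 11.6 CPM and ALDOA at most 44.5 CPM. Folds of such genes are given below as values of these tables only. The opposite also occurred among genes with near-identical copies, where counting can split reads between copies. HNRNPA1 stood at 88.0 and 94.0 CPM in Scramble and at 1761 to 1896 CPM in siNTC5. RPS26 stood at 5.74 and 4.43 CPM against 180 to 234 CPM. The other largest falls were RUSC1-AS1, CNTNAP3B, NUDT4, FAM133B, NUDT3, ZNF8, NBPF9 and RALGAPA1, several of them in multigene families. In all, 1140 shared names had counts in Scramble and none in siNTC5, led by SLC25A6, NOMO1 and TAF15. Another 1540 had counts in siNTC5 and none in Scramble, led by RPL21, SRGAP2C and SRGAP2B. The pathway counts below were therefore repeated without the genes near 0 in one table and their neighbours, an alternative chosen after seeing the data. In it 67.5% of genes passed, 33.6% higher and 33.9% lower. Shares of all genes to set beside the list counts were 35.1% higher and 33.5% lower with kit in the model. Against the ligation libraries they were 35% and 31.2%, and for the ligation kit against TruSeq within siNTC5 8.03% and 9%.

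The pathway with the largest shift was the ATF4 amino acid response, which was higher in Scramble. Of 34 tested members 32 were higher and 1 lower, with a median log2 fold change of 1.66 against 0.003 over all genes tested. Without genes near 0 in one table and their neighbours, 29 of 31 were higher and 1 was lower, with a median of 1.63. The 1 lower gene, VLDLR, a lipoprotein receptor, was under 1 CPM in all 6 libraries. The 4 siNTC5 libraries split by kit in this list. Within siNTC5, 21 members were higher in the ligation libraries than in the TruSeq libraries and none was lower (8.03% and 9% of all genes), with a median of 0.32. Between the same kits within the HNRNPK knockdown libraries the median was 0.10. Against the 2 ligation libraries alone, 33 of 35 members were still higher in Scramble (35% of all genes) and 2 were lower (31.2%), with a median of 1.28. Of all genes 66.1% passed there.

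Among the transcription factors of the response, ATF4 itself stood at 866 and 836 CPM in Scramble and at 383, 389.8, 497 and 470 CPM in siNTC5. Both Scramble libraries lay above all 4 siNTC5 libraries. It was higher by 1.14 on the log2 scale (SE 0.055, adjusted p = 1.63e-09). DDIT3, which encodes CHOP and is induced by ATF4, stood at 59.4 and 58.9 CPM against 13.5, 14.3, 26.1 and 22.9 CPM, a log2 fold change of 2.08. ATF3, another stress-induced factor, stood at 74.0 and 72.0 CPM against 18.2 to 30.1 CPM, a log2 fold change of 1.83. CEBPB, a partner of ATF4 on DNA, was higher by 1.71 with siNTC5 libraries at 8.96 to 10.8 CPM and no split by kit.

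The most responsive targets separated the siNTC5 libraries by kit as well as the sets. CHAC1, an enzyme that degrades glutathione, stood at 158 and 144 CPM in Scramble. In siNTC5 it stood at 3.68 and 3.56 CPM with TruSeq and at 37.8 and 30.6 CPM with the ligation kit. With kit in the model it was higher by 5.38 on the log2 scale (SE 0.12, adjusted p = 1.3e-12), and against the ligation libraries by 2.15. Within siNTC5 the ligation libraries were higher than the TruSeq libraries by 3.24. Over the HNRNPK knockdown libraries, which include both kits, CHAC1 stood at 41.7 to 53.7 CPM, scaled by library totals. TRIB3, a pseudokinase that restrains the response, stood at 331 and 311 CPM against 44.8, 44.6, 91.4 and 88.2 CPM, a log2 fold change of 2.84. GDF15, a secreted stress cytokine, stood at 331 and 262 CPM against 47.9, 30.2, 86.6 and 71.1 CPM. In each of the 3 genes all siNTC5 libraries lay below both Scramble libraries.

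Genes that make, import and charge amino acids were higher too. PSAT1 of serine synthesis stood at 594 and 559 CPM against 127 to 199 CPM, and PHGDH, the first enzyme of that route, at 290.2 and 251 CPM against 71.6 to 111 CPM. MTHFD2, a mitochondrial folate enzyme, was higher by 1.14. Among transporters, SLC7A11, the cystine importer, was higher by 2.33, SLC7A5, an importer of large neutral amino acids, by 1.72, and their shared partner SLC3A2 by 1.58. The smallest significant rise was that of SHMT2 at 0.21. ALDH1L2 had a log2 fold change of -0.35 and did not pass (adjusted p = 0.265). Aminoacyl-tRNA synthetases carry older symbols in the Scramble tables and were paired through RefSeq synonyms, a step added after seeing the data. With them 43 of 45 members were higher (35.1% of all genes in that fit) and 1 was lower (33.4%), where 68.5% of genes passed. AARS1, which charges alanine, stood at 779.6 and 712 CPM against 228 to 332 CPM, a log2 fold change of 1.66, and SARS1, which charges serine, was higher by 1.51. The list does not hold every synthetase. Outside it, and so outside the count, HARS1 for histidine was lower by -0.30, RARS1 for arginine by -0.24 and KARS1 for lysine by -0.14.

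Some promoters of this list held the letters of the composite C/EBP-ATF element, TGATGNAA, searched on both strands. In the RefSeq windows of GRCh38.p14, from 250 bases before to 50 bases after each start, 11 of 37 members with a window held a match (29.7%). Of all 27305 windows 3.67% did, and of windows of tested genes 1.62%. A match is a description of letters and not a binding site. The stretches of CHAC1 and ATF3 are shown because their matches lie before the start and both genes reached 10 CPM in each set. Capitals mark the match, 209 and 191 bases before the start. CHAC1 is at chr15:40953222-40953309 on the plus strand with its match on the opposite strand, and ATF3 at chr1:212565176-212565263 on the plus strand.
CHAC1: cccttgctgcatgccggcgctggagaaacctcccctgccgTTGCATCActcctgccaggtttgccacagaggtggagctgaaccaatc
ATF3: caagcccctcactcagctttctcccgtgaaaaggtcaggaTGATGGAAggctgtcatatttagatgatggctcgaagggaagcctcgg

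**Figure D2:**
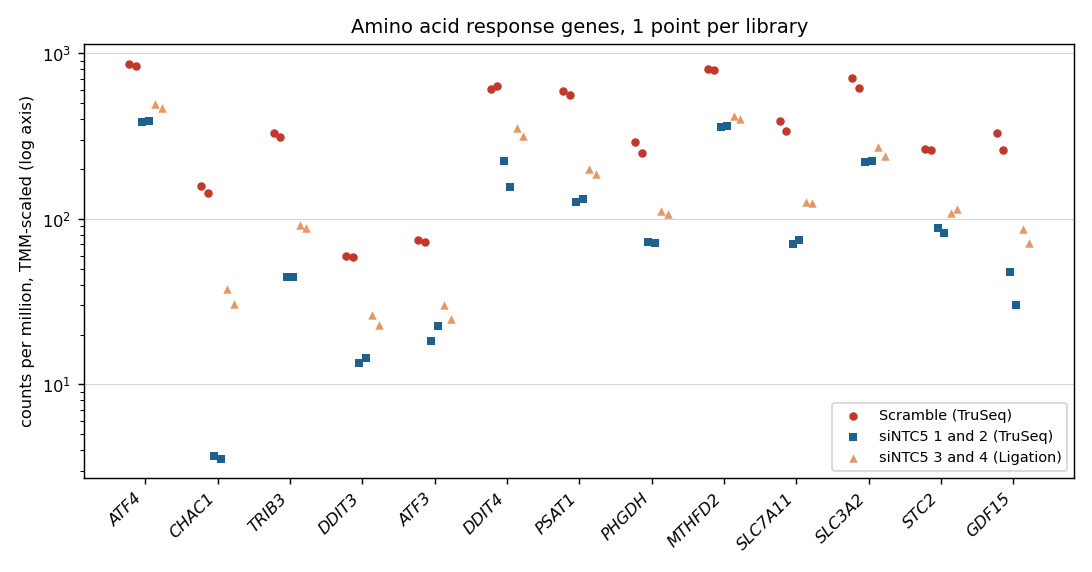
CPM on a log axis of 13 genes of the amino acid response, 1 point per library. Red circles are Scramble, blue squares siNTC5 with TruSeq and orange triangles siNTC5 with the ligation kit. Scramble lies highest for every gene shown, and the ligation libraries lie above the TruSeq libraries, most for CHAC1.

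Endoplasmic reticulum folding genes, which share part of the stress response upstream of ATF4, were higher by less. Of 23 tested, 16 were higher and 2 lower (EDEM1 and SDF2L1), with a median of 0.27. HSPA5, the main chaperone of that compartment, stood at 2480 and 2557 CPM against 1077 to 1275 CPM, a log2 fold change of 1.22. HERPUD1, which acts in degradation from the reticulum, was higher by 1.44. HYOU1 and CANX were called with far larger folds, and HYOU1 is among the genes near 0 in the 8-library table, as CANX was low there.

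Genes of DNA replication and the G1/S transition were lower in Scramble. Of 45 tested members 41 were lower and 1 higher, with a median log2 fold change of -1.22. The 1 higher gene was E2F2, listed at 0 in all 4 siNTC5 libraries and at 10.8 and 8.37 CPM in Scramble. In bulk RNA, fewer cells in a phase and less RNA per cell cannot be told apart. The siNTC5 libraries again differed by kit. With the ligation kit 34 members were lower than with TruSeq and 1 was higher (9% and 8.03% of all genes), with a median of -0.34. Against the ligation libraries alone 40 members were lower in Scramble and 2 higher (31.2% and 35% of all genes), with a median of -0.88.

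The origin-firing factor CDC45 stood at 14.5 and 13.2 CPM in Scramble and at 57.6, 66.9, 42.1 and 44.1 CPM in siNTC5. Both Scramble libraries lay below every siNTC5 library. The log2 fold was -2.17 (SE 0.093, adjusted p = 5.26e-10). MCM4, a subunit of the replicative helicase, stood at 136 and 141 CPM against 447, 486, 331 and 340.4 CPM, a log2 fold change of -1.75. The polymerase subunits POLE2 and POLA2 were lower by -1.91 and -1.87. PCNA, the sliding clamp, stood at 85.6 and 90.4 CPM against 197 to 234 CPM, a log2 fold change of -1.41. TYMS, which makes thymidylate, and FEN1, which processes Okazaki fragments, were lower by -1.50 and -1.63. E2F1, a driver of this programme, was lower by -1.29.

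A few members did not pass or depended on the comparator. CCNE1, which encodes cyclin E1, had a log2 fold change of -0.12 and did not pass, with 39.6 CPM in both Scramble libraries against 32.2 to 45.6 CPM. CDT1 (origin licensing) and POLD1 (the lagging-strand polymerase) did not pass either, at 0.20 and -0.16. SLBP, which binds histone messenger RNA and peaks in S phase, was lower by -0.55 with kit in the model, but not against the ligation libraries, where it had 0.05. CCNE2 behaved alike, with -0.62 and -0.08. Replication-dependent histone genes had no name in common between the tables. Through older symbols 6 could be tested, of which 4 were higher in Scramble and none lower.

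Many promoters of this list held the letters of E2F elements. The letters searched on both strands were TTTGGCGC, TTTCGCGC, TTTCCCGC and TTTGCCGC. A match was found in 21 of 38 windows (55.3%), against 3.33% of all windows and 5.2% of those of tested genes. Stretches of POLA2, GINS2 and TYMS, 3 of the most lowered genes with a match before the start, are shown with the match in capitals. POLA2 is at chr11:65261869-65261956 (plus strand), GINS2 at chr16:85688955-85689025 (minus strand) and TYMS at chr18:657574-657652 (plus strand). The matches of GINS2 and TYMS lie on the strand opposite to the gene.
POLA2: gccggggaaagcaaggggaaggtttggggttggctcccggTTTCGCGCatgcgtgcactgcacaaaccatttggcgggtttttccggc
GINS2: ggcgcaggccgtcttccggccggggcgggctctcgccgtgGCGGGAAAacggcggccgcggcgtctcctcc
TYMS: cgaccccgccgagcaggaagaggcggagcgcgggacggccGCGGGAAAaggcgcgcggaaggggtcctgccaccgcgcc

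Genes of mitosis and G2/M were lower as well, by less. Of 42 tested members 40 were lower and 1 was higher (CDC25B), with a median of -0.86. Against the ligation libraries 39 were lower and none was higher (31.2% and 35% of all genes), with a median of -0.70. Within siNTC5, 12 were lower with the ligation kit and 1 higher (9% and 8.03% of all genes). FOXM1, a transcription factor of this programme, stood at 43.8 and 41.4 CPM in Scramble and at 157, 172, 121 and 127 CPM in siNTC5. Both Scramble libraries lay below every siNTC5 library, by a log2 fold of -1.95 (SE 0.067, adjusted p = 5.96e-11). MKI67, the proliferation marker, stood at 481 and 474 CPM against 973 to 1155 CPM, a log2 fold change of -1.19. CDK1, the mitotic kinase, and BUB1B and KIF11, of the spindle checkpoint and spindle, were lower by -1.22, -1.32 and -1.30. CCNB1 was lower by -0.81 and AURKA by -0.86. CKS2 had -0.14 and did not pass. CDC25B, a phosphatase that activates CDK1, stood at 338 and 317 CPM against 292, 266, 364 and 342 CPM, so the groups overlapped, and against the ligation libraries its value was -0.10.

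The short letters of the cell cycle homology region, TTTGAA on either strand, were in 23 of 34 windows of this list (67.6%). They were in 15.4% of all windows and 9.63% of those of tested genes. BUB1B, KIF11 and CDK1 are shown, with the match in capitals, 23, 28 and 161 bases before the start. BUB1B is at chr15:40161006-40161068, KIF11 at chr10:92593062-92593129, where the match is on the strand opposite to the gene, and CDK1 at chr10:60778130-60778215, all on the plus strand.
BUB1B: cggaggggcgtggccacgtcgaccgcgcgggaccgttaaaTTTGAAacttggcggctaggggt
KIF11: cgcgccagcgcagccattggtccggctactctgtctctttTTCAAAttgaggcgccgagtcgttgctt
CDK1: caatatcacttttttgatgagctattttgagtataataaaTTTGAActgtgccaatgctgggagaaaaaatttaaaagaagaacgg

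**Figure D3:**
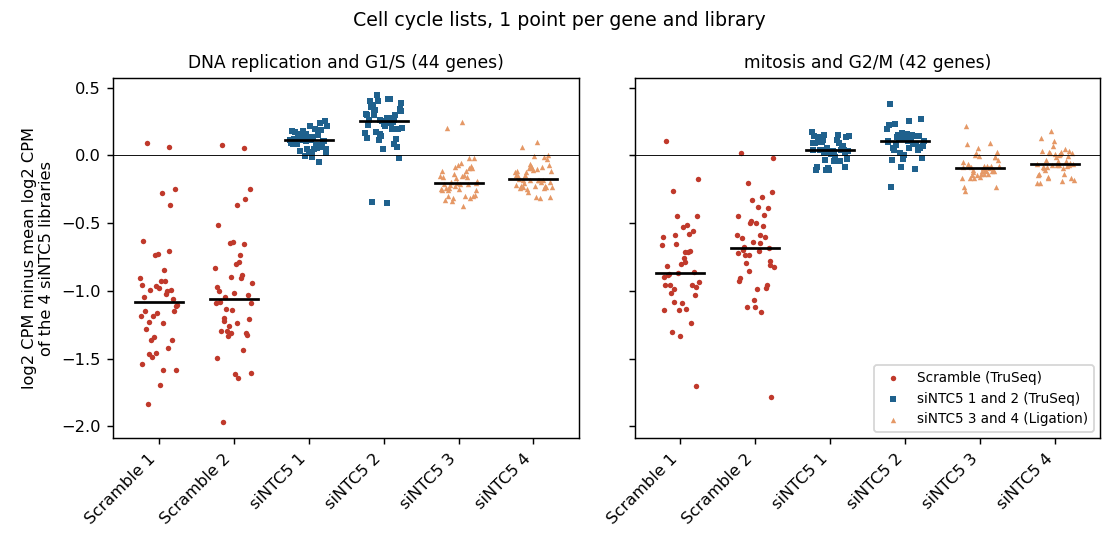
Log2 CPM of each gene minus its mean log2 CPM over the 4 siNTC5 libraries (y axis), by library (x axis), for 44 genes of DNA replication and 42 of mitosis with counts in every siNTC5 library. Black bars are medians over genes. The medians of both Scramble libraries lie below those of the siNTC5 libraries, and the medians of the ligation libraries lie between; single genes overlap.

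Proteasome subunits and heat shock chaperones were mostly lower, and ribosomal protein messages mostly higher. Of 31 proteasome subunits 27 were lower and 2 higher, with a median of -0.41. The 2 higher, PSMB3 and PSMC4, are among the genes near 0 in the 8-library table. Without such genes and their neighbours 26 of 27 were lower. PSMC6, an ATPase subunit, stood at 41.6 and 42.7 CPM against 80.6 to 104 CPM, a log2 fold change of -1.25, and PSMC1, another, was lower by -1.23. In the same list 19 subunits were lower with the ligation kit within siNTC5 (9% of all genes). Against the ligation libraries 20 were lower in Scramble and 2 higher (31.2% and 35% of all genes), with a median of -0.21. Of 21 heat shock chaperones, a list of mainly cytosolic proteins that also holds the mitochondrial HSPD1 and HSPE1, 12 were lower and 6 higher. HSPE1, a co-chaperonin, stood at 30.9 and 36.1 CPM against 114, 131, 75.5 and 70.9 CPM, and the cytosolic HSPA8 was lower by -0.84. Of the 6 higher, HSF1, CHORDC1 and HSPA1A are near 0 in the 8-library table and HSPA1B is low there, which leaves HSPB1 at 0.48 and DNAJB1 at 0.24. Of 40 genes of MYC and ribosome biogenesis 26 were lower and 9 higher with kit in the model, with a median of -0.29. Against the ligation libraries 16 were lower and 11 higher (31.2% and 35% of all genes), with a median of -0.03. Within siNTC5 19 were lower with the ligation kit (9% of all genes). MYC itself was higher by 0.55. BOP1 and NOP56, factors of ribosome assembly, were lower by -1.30 and -1.19.

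Of 79 cytosolic ribosomal protein genes 55 were higher and 18 lower, with a median of 0.41. RPLP2 stood at 1042 and 1053 CPM against 439 to 613 CPM, a log2 fold change of 1.10, and RPL13 was higher by 0.92. Many ribosomal protein genes have processed copies in the genome, and the largest values of the list went both ways. RPS18 and RPS25 were near 0 in siNTC5, and RPS9 and RPL7A were low there. RPL21 was at 0 in Scramble and at 485 to 571 CPM in siNTC5. RPL7 stood at 264 and 261 CPM in Scramble against 1602 to 1757 CPM, and RPS27 at 59.9 and 62.4 CPM against 400 to 492 CPM. These members are uncertain where the counting could split reads between copies.

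Immediate early genes were mostly higher, while single members turned with the comparator. With kit in the model 17 of 27 were higher in Scramble and 6 lower, with a median of 0.61. Against the ligation libraries 24 were higher and 1 lower (FOSL2), with a median of 0.92. FOS, a component of AP-1, stood at 109 and 107 CPM in Scramble, at 165 and 179 CPM in the TruSeq siNTC5 libraries and at 44.1 and 47.4 CPM in the ligation libraries. The Scramble libraries thus lay between the 2 kinds of siNTC5 library. The log2 fold change of FOS was -0.67 with kit in the model and 1.24 against the ligation libraries. FOSB turned in the same way, from -0.98 to 1.75, NR4A1, a nuclear receptor, from -0.93 to 0.31, and DUSP2, a phosphatase of MAP kinases, from -0.48 to 0.48. SRF, which regulates many of these genes, went from -0.18 to 0.08. Within siNTC5, 2 of the 27 members were higher in the ligation libraries and 9 lower (8.03% and 9% of all genes), with a median of 0.01. Between the same kits within the HNRNPK knockdown libraries the median was 0.20. These medians do not describe single genes such as FOS, and the source of the split was not tested.

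Other members were higher against either kit. JUN stood at 30.5 and 31.0 CPM against 10.1 to 13.3 CPM, a log2 fold change of 1.24. JUNB, JUND and KLF2, transcription factors of the same early wave, were higher by 1.98, 1.97 and 2.08, and EGR1 was higher by 0.59 in the model and by 1.12 against the ligation libraries. Genes that feed back on MAP kinase signalling went with them, as 13 of 19 were higher and 2 lower (SPRY1 and ETV4). DUSP4, a nuclear MAP kinase phosphatase, stood at 605 and 630.0 CPM against 227 to 349 CPM, a log2 fold change of 1.34. DUSP6 and EPHA2 were higher by 1.25 and 1.27.

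**Figure D4:**
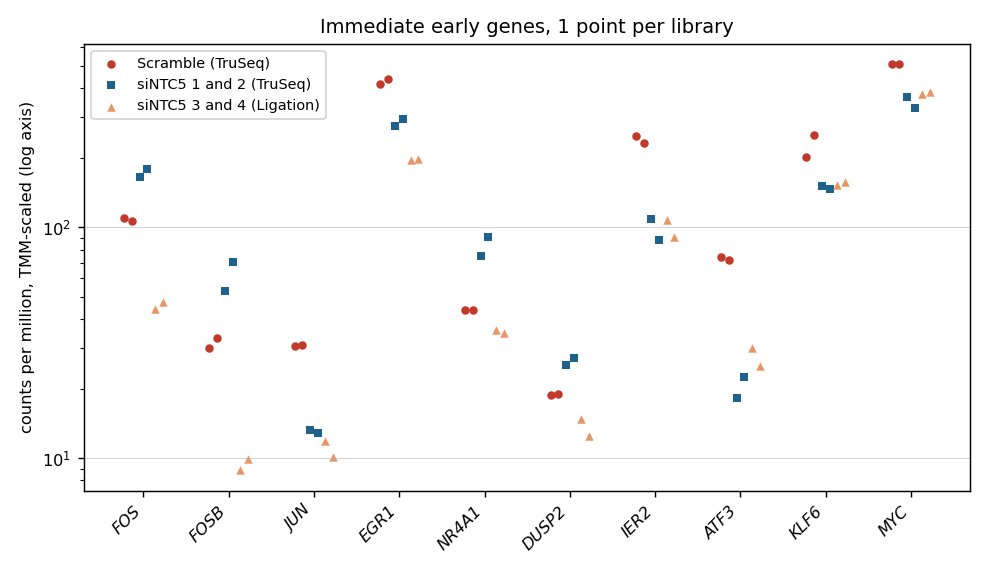
CPM on a log axis of 10 immediate early genes, 1 point per library, with symbols for the sets and library kits as named in the key. FOS, FOSB, NR4A1 and DUSP2 in Scramble lie between the TruSeq and ligation libraries of siNTC5, and JUN, EGR1, IER2, ATF3, KLF6 and MYC lie above both.

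Interferon-stimulated genes and antigen presentation were higher in part. Of 41 tested 24 were higher and 6 lower, with a median of 0.49, and without genes near 0 in one table and their neighbours 20 of 37 were higher and 6 lower. B2M, the shared light chain of MHC class I, stood at 396 and 426 CPM in Scramble and at 59.4, 55.8, 57.2 and 60.5 CPM in siNTC5. This was a log2 fold of 2.83 (SE 0.066, adjusted p = 1.48e-12), and the siNTC5 libraries did not split by kit. HLA-C and HLA-B, class I heavy chains with near-identical relatives, were higher by 3.28 and 2.92, while TAP1 and IRF9 were near 0 in the 8-library table. B2M, HLA-C and HLA-B were low in all 8 libraries of that table, knockdown included. They reached at most 79.1, 66.9 and 82.3 CPM there, scaled by library totals. ISG15, a ubiquitin-like effector, stood at 46.6 and 41.3 CPM against 12.7 to 24.7 CPM, and IFITM3, which blocks viral entry, was higher by 1.07. Others went down: EIF2AK2, the kinase PKR that senses double-stranded RNA, stood at 52.4 and 53.02 CPM against 101 to 109 CPM, a log2 fold change of -1.04. OAS3, another sensor of double-stranded RNA, was lower by -0.88 and SAMHD1, a nucleotide hydrolase, by -0.72. NF-kappa-B targets were mixed, with 11 of 20 higher and 4 lower. Their largest folds were in genes of low level, such as IL32, a cytokine, at 6.13 and 5.69 CPM against 1.89 to 2.73 CPM.

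Genes of the RNA interference machinery, which handles the siRNAs both sets received, were mostly lower. Of 13 tested 7 were lower and 2 higher (TNRC6A and PRKRA), with a median of -0.50. Against the ligation libraries 8 were lower and 3 higher (31.2% and 35% of all genes), with a median of -0.28. AGO2, the Argonaute that slices target RNA, stood at 95.9 and 78.6 CPM in Scramble and at 418, 396, 370 and 378 CPM in siNTC5. The groups did not overlap, and the log2 fold was -2.22 (SE 0.082, adjusted p = 1.15e-10), against -2.10 with the ligation libraries. Over all 8 libraries of the siNTC5 table, knockdown included, AGO2 stood at 387 to 443 CPM, scaled by library totals. DGCR8 and DROSHA, which cut primary microRNA transcripts in the nucleus, were lower by -1.70 and -1.14. AGO3 was lower by -1.57, AGO1 by -0.57 and DICER1, which makes the small duplexes, by -0.57. TNRC6A, an Argonaute partner in silencing, stood at 98.8 and 108 CPM against 43.4 to 58.8 CPM, a log2 fold change of 0.92.

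Among metabolic lists, glycolysis, oxidative phosphorylation and cholesterol synthesis had most members higher. Of 22 glycolysis genes 17 were higher and 4 lower (PFKFB4, PGAM1, PFKM and TPI1), with a median of 0.42. LDHA, which makes lactate, stood at 2398 and 2669 CPM against 1066 to 1258 CPM, a log2 fold change of 1.17. GPI, the second enzyme of the route, was higher by 1.499, ALDOC by 1.19 and the glucose importer SLC2A1 by 0.63. ALDOA had the largest value and is low in the whole 8-library table. Nuclear genes of oxidative phosphorylation were higher for 35 of 57 and lower for 10, with a median of 0.30. Of these, NDUFS1 and NDUFS3 were near 0 in the 8-library table and NDUFA6 was low there. Without genes near 0 in one table and their neighbours 31 of 53 were higher and 9 lower, with a median of 0.29. Older symbols brought in further members, and 41 of 72 were then higher and 13 lower, with a median of 0.26. Targets of the hypoxia-inducible factor were mixed, with 11 of 24 higher and 5 lower (35.1% and 33.5% of all genes) and a median of 0.09. NDRG1 was higher by 1.41 and P4HA1, a collagen hydroxylase, by 1.28. LOX was lower by -2.01 but of low level. It stood at 0.46 to 0.59 CPM in Scramble and 2.18 to 3.31 CPM over the 8 libraries of the siNTC5 table, scaled by library totals.

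Of 26 genes of cholesterol synthesis and uptake 16 were higher and 5 lower (among them ACAT2, EBP, FDPS and HSD17B7), with a median of 0.43. SREBF2, the regulator of the route, was higher by 0.88. FDFT1 and LSS had larger values, 2.95 and 2.51, and were low in all 8 libraries of their table, at no more than 46.9 and 17.04 CPM. In fatty acid synthesis 7 of 14 were higher and 3 lower, a balance that library totals turned to 5 higher and 7 lower. With library totals 3610 of all 14263 genes were higher and 6347 lower. The median was 0.08, and 0.01 without genes near 0 in one table and their neighbours. SCD, the desaturase, stood at 4824 and 5095 CPM against 2886 to 3011 CPM, a log2 fold change of 0.75.

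Epithelial and matrix genes were higher. Of 20 genes of epithelial identity 15 were higher and 3 lower (ESRP2, CA2 and GRHL2), with a median of 0.61. Without genes near 0 in one table and their neighbours 12 of 17 were higher and 3 lower, with a median of 0.35. CLDN7, a tight junction claudin, stood at 347 and 320.0 CPM in Scramble and at 49.9 to 57.5 CPM in siNTC5, a log2 fold change of 2.66. OCLN was higher by 2.77 and KRT19, a keratin, by 1.12. Over all 8 libraries of the siNTC5 table, knockdown included, CLDN7 reached at most 68.4 CPM and OCLN 25.3 CPM, scaled by library totals. Of 7 mesenchymal switch genes 4 were higher and none was lower, and against the ligation libraries 1 was higher and 1 lower. In the response to TGF-beta and matrix, 13 of 19 were higher and 1 lower (THBS1). LAMB3, a laminin chain, stood at 222 and 216 CPM against 55.2 to 84.8 CPM, a log2 fold change of 1.84. Epithelial markers were present in both sets: all 9 epithelial markers were tested, 8 were higher in Scramble and CDH17 did not pass, and their summed level was 4411 to 4554 CPM in Scramble and 3204 to 3679 CPM in siNTC5. Among 8 fibroblast markers 6 were under 1 CPM in every library, with COL1A2, LUM and PDGFRA at 0, and the summed level was 29.3 to 32.2 against 46.6 to 76.9 CPM. Among 9 leukocyte markers 7 were under 1 CPM, with CD3E, CD3D and MS4A1 at 0, and the summed level was 51.0 to 57.3 against 19.7 to 26.7 CPM. CD68, a lysosomal protein also used as a macrophage marker, made up almost all of the leukocyte sum, at 49.0 to 55.7 CPM in Scramble and 17.96 to 26.5 CPM over the 8 libraries of the other table. Among 7 neuronal markers 6 were tested, 1 was higher and 2 lower, and the summed level was 144 to 153.5 against 141 to 200 CPM. Erythroid markers summed to 5.01 to 5.03 against 2.005 to 3.27 CPM, with 2 of 4 tested higher and none lower. Endothelial markers summed to 1.575 to 1.82 against 1.09 to 1.6 CPM, and the 1 tested was higher. All sums of this paragraph are scaled by library totals.

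Long noncoding and small nucleolar RNA genes were more often lower than higher, while transcribed pseudogenes went the other way. Of 645 tested long noncoding RNAs 48.7% were lower and 14.4% higher, with a median of -0.70, and of 144 small nucleolar RNA genes 75% were lower and 9.72% higher, with a median of -1.78. Protein-coding genes had 31.9% lower and 36.6% higher. Of 360 transcribed pseudogenes 30.8% were lower and 46.9% higher, with a median of 0.30. NEAT1, the scaffold of paraspeckles, stood at 72.6 and 68.9 CPM in Scramble and at 494, 523, 658 and 650.1 CPM in siNTC5, lower by a log2 fold of -2.85 (SE 0.059, adjusted p = 5.8e-13). KCNQ1OT1 was lower by -2.70, and 10 of 14 nuclear-retained long noncoding RNAs were lower with a median of -0.95. The 2 higher were MALAT1, of nuclear speckles, at 52.3 and 46.0 CPM against 8.38 to 11.7 CPM, and NORAD. Host genes of small nucleolar RNAs split, with 11 of 20 lower and 7 higher. SNHG12 stood at 11.9 and 11.8 CPM against 46.6 to 59.5 CPM, while ZFAS1 was higher by 1.03. Small nucleolar and host genes overlap, so reads of one can be counted for the other. RNA45S5, the ribosomal RNA precursor, is named in the Scramble tables only and took 1.72% and 1.69% of their counts.

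Genes of the nuclear lamina and its chromatin, close to the subject of the series, changed in both directions. Of 24 lamina and inner membrane genes 9 were higher and 10 lower, with a median of -0.03. Of all genes tested 35.1% were higher and 33.5% lower, so calls in both directions are not particular to these genes. LMNB1, which encodes lamin B1, stood at 133 and 147 CPM in Scramble against 169, 192, 166 and 170.2 CPM, lower by a log2 fold of -0.37 (SE 0.071, adjusted p = 0.000524). LMNA was higher by 0.82. HNRNPK, the gene targeted elsewhere in the series, stood at 789 and 828 CPM against 935, 971, 820.0 and 812 CPM, so the sets overlapped. Its log2 fold change was -0.24 (adjusted p = 0.0016) with kit in the model and -0.01 against the ligation libraries, where it did not pass. Of 29 genes of H3K9 and H3K27 methylation 14 were lower and 9 higher, with a median of -0.24, and of -0.06 against the ligation libraries. EZH2, the H3K27 methyltransferase, stood at 40.1 and 43.0 CPM against 94.9 to 123 CPM, a log2 fold change of -1.41, and SUV39H1, an H3K9 methyltransferase, was lower by -1.62. Of 27 hnRNP and poly(C)-binding genes 11 were lower and 7 higher. The largest values of that list, HNRNPL, HNRNPR and HNRNPA1, belong to the genes near 0 in one table or with near-identical copies.

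Other lists were mixed or mostly higher. Lysosome and autophagy genes were higher for 18 of 32 and lower for 4. CTSB, a lysosomal protease, was higher, at 585 and 592 CPM against 115 to 129 CPM. It was low in all 8 libraries of the siNTC5 table, knockdown included, at no more than 136 CPM scaled by library totals. Of 29 p53 targets 12 were higher and 9 lower, and with library totals 10 and 12, where all 14263 genes had 3610 and 6347. GADD45A, a stress-induced gene, was higher by 1.76 and BBC3, which promotes apoptosis, by 2.47, while CDKN1A, the cell cycle inhibitor p21, stood at 498 and 503 CPM against 336 to 403 CPM and was higher by 0.56. Wnt targets had 7 of 16 higher and 4 lower (35.1% and 33.5% of all genes). Among them AXIN2, the feedback inhibitor, was lower by -1.26 and SOX9 higher by 1.02. NRF2 targets had 12 of 26 higher and 5 lower, and YAP and TEAD targets 10 of 17 higher and 4 lower, or 5 and 6 with library totals. With older symbols matched, 10 of 19 YAP and TEAD targets were higher and 6 lower, and the median went from 0.30 to 0.16. The members so added were CCN1 and CCN2, matrix-associated proteins and widely used YAP targets, lower by -0.26 and -1.24 with kit in the model. CCN1 stood at 36.6 and 36.4 CPM in Scramble against 40.7, 46.6, 15.7 and 17.7 CPM, above both ligation libraries. CCN2 was of low level, at 2.72 and 2.11 CPM against 4.27, 6.98, 1.75 and 2.98 CPM. The sets overlapped for both genes.

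**Figure D5:**
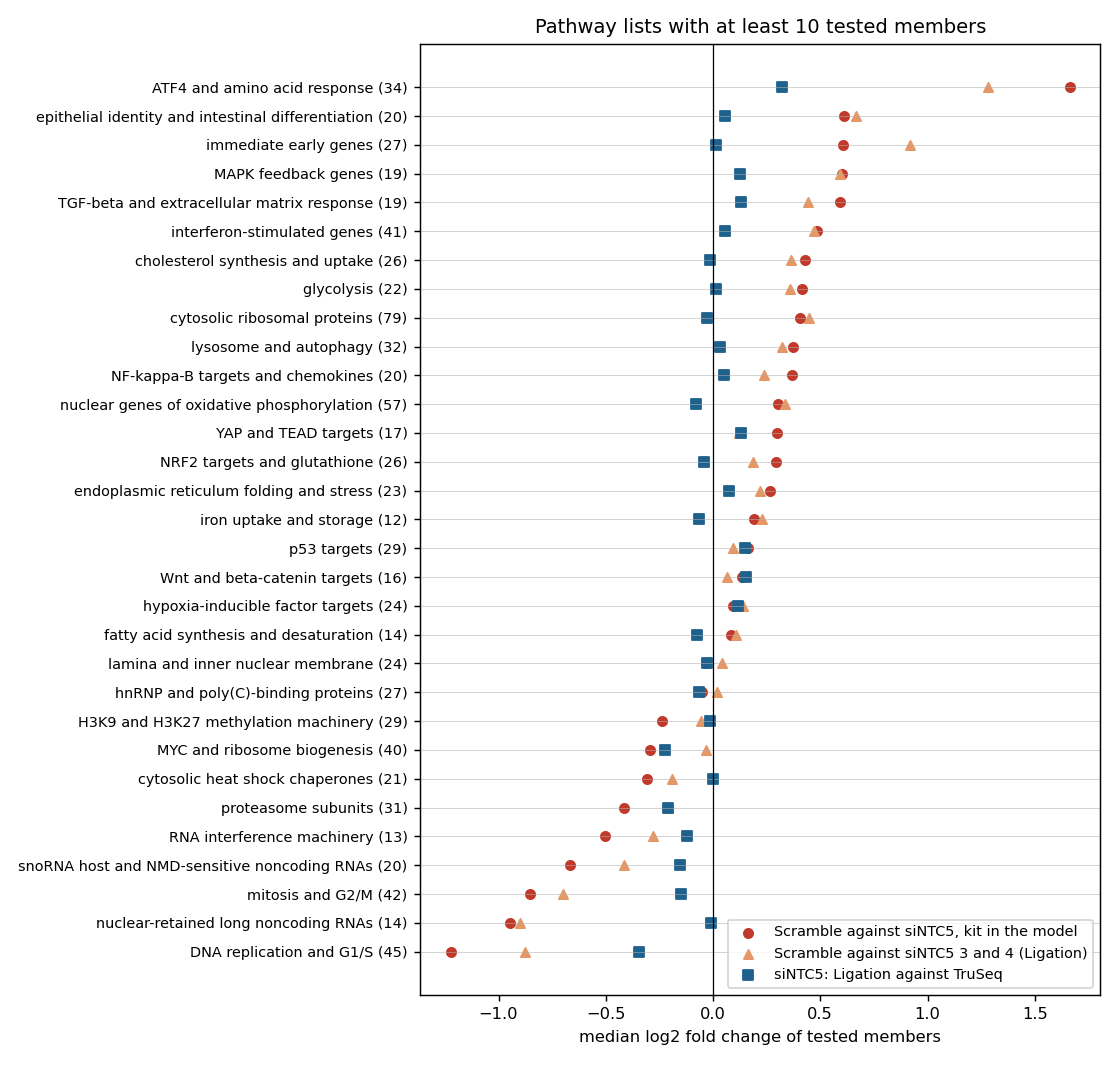
Median log2 fold change (x axis) of the tested members of each list with at least 10 of them, with the number of members in parentheses. Red circles are Scramble against siNTC5 with kit in the model, orange triangles Scramble against the ligation libraries of siNTC5, and blue squares the ligation kit against TruSeq within siNTC5. Squares cover the circle of the lamina list and the triangle of the YAP list. The ATF4 list has the highest median at 1.66 and the DNA replication list the lowest at -1.22.

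For scale, HNRNPK siRNA against siNTC5, fitted the same way on all names of the 8-library table, called 10143 of 14237 genes (71.2%, or 34.9% higher and 36.4% lower) with a median absolute log2 fold change of 0.41. The comparisons share the siNTC5 libraries, so their values are set side by side and not correlated. In the knockdown 35 of 43 tested ATF4 genes were higher and 2 lower, with a median of 0.63. These 43 include synthetases, and the value for Scramble with older symbols matched was 1.51 over 45 members. DNA replication genes had a median of -0.34 against -1.22, and mitosis genes 0.05 against -0.86. Cholesterol genes had none higher and 24 lower, with a median of -0.99, where Scramble had 0.43. Glycolysis had 2 higher and 20 lower, with a median of -0.65, where Scramble had 0.42.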

How the data were processed

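Per the labels, RNA from 6 nontargeting siRNA libraries of HCT116 was sequenced. The authors deposited raw counts per gene symbol. The submitters' processing notes name STAR 2.7.1a and featureCounts for both sets, Subread 2.0.6 and hg38 for siNTC5, and DESeq2, hg19 and hg38 for Scramble, without roles. The annotation and the strand counted are not given in the sources used here. Of the shared names 95.7% matched RefSeq.

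Names shared by the tables were joined. edgeR 4.0.16 with limma 3.58.1 in R 4.3.3 filtered genes (filterByExpr), scaled by TMM (factors 0.911 and 0.921 for Scramble, 1.04 to 1.05 for siNTC5) and ran the quasi-likelihood test with set and library kit in the model, so that the contrast is one within TruSeq. P-values were adjusted by Benjamini-Hochberg over all genes tested, with a threshold of 0.05. The common biological coefficient of variation was 0.0583. Standard errors come from this fit. Alternatives included the Wald test of DESeq2 1.42.0 and Scramble counts thinned to the depth of siNTC5. No libraries agreed within sampling noise: chi-square per degree of freedom was at least 2.24.

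Promoter windows came from RefSeq. The 36 pathway lists, the 6 marker lists, the members and the rules were chosen with earlier results of these data known. Lists are described by counts and medians, without a set test. Named genes are HNRNPK, LMNB1, the 10 largest rises and 10 largest falls at an average log2 CPM of at least 3 with counts in each set and both Scramble libraries outside the siNTC5 range, up to 4 called members per list, and up to 3 genes at 0 in one set. Other genes were named after their values were seen. On simulated counts with the library sizes of this comparison 13998 genes were tested, and 9 unchanged genes were called. Of 99 genes changed by a log2 fold of 1, 94 were recovered, and of 97 changed by 2, 96. That simulation changed few genes, evenly up and down, with a common dispersion and no genes set near 0 in a whole table. It therefore gives no error rate for data in which 68.6% of genes pass. Python 3.11.15, pandas 2.3.3, numpy 2.4.6 and matplotlib 3.10.9 were used for lists and figures. ChIP files were not used here. Results of some list members are not reported here.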

Additional observations from a re-analysis of the deposited data

Results flagged for a closer look

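In 9 of 258 named genes at 1 CPM or more, 1 of the 4 siNTC5 libraries stood apart from the other three, by a gap above Dixon's 95% critical share of the group's range. Chance flags about 1 in 20 groups. In siNTC5 library 2, LMNB1 stood at 191.9 CPM (others 166 to 170.2), EZH2 at 122.5 CPM (others 94.9 to 98.1), SAMHD1 at 46.19 CPM (others 37.2 to 38.1), PSMD8 at 217.8 CPM (others 182 to 187) and PFKM at 300.7 CPM (others 264 to 269.7). In the same library RELB stood at 7.837 CPM (others 12.03 to 12.23) and TNFAIP2 at 67.18 CPM (others 72.8 to 73.8). In siNTC5 library 3, EIF2AK2 stood at 101.3 CPM (others 108 to 109) and HSD17B7 at 19.73 CPM (others 21.5 to 21.8).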

How the results depend on the processing

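The count of 9783 genes stayed between 8485 (no kit term) and 10317 (no filter) under the alternatives, including 8772 with the Wald test of DESeq2 and 9331 with Scramble thinned to the depth of siNTC5. Asking for a log2 fold of 1 or more as well left 3500. Leaving out 1 library gave 8667 to 10066. Replicate numbers 1 and 2 are shared only as numbers, with r = 0.134 across genes between the differences of the numbered libraries, and with the replicate block in place of kit 9424 genes passed. Upper-quartile scaling gave 4345 higher and 5465 lower. Genes near 0 in one table and their neighbours left out gave 9204 and older symbols matched gave 10058, both chosen after seeing the data. At that minimum fold 1709 of all 14263 genes were higher and 1791 lower. Of 79 ribosomal protein genes 10 were higher and 10 lower, shares close to those of all genes. Of 22 glycolysis genes 5 were higher, of 42 mitosis genes 12 were lower, and of 31 proteasome genes 2 were lower and 2 higher. At that fold heat shock chaperones had 1 lower and 4 higher, H3K9 and H3K27 methylation 2 lower and 4 higher, and hnRNP genes 1 lower and 3 higher, which turns their balance. Library totals turned the balance of 4 lists, with 5 fatty acid, 10 p53, 5 YAP and 3 iron genes higher and 7, 12, 6 and 4 lower. They turned the balance of all 14263 genes as well, to 3610 higher and 6347 lower, so these turns are not particular to the lists. Against the ligation libraries the lamina list had 8 lower and 9 higher. In that comparison values changed sign for SLC40A1 (-0.0917), ZEB1 (-0.39), CCNE1 (0.23), SLBP (0.0536), CDT1 (-0.0467), CDC25B (-0.10), FOS (1.24), FOSB (1.75), NR4A1 (0.31), DUSP2 (0.48), SRF (0.0778), PSMD8 (0.0077) and FDPS (0.032). Without the kit term ZEB1 had -0.0299 and CCNE1 0.0428. Leaving out 1 library gave ALDH1L2 values from -0.63 (without siNTC5 replicate 1) to 0.114 (without siNTC5 replicate 2) and POLD1 values from -0.335 (without siNTC5 replicate 2) to 0.0417 (without siNTC5 replicate 1). The cause of these changes was not tested. With 2 Scramble libraries the spread of that set rests on 1 pair, and genes near 0 in a whole table limit every list that holds them.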
